A study of Mus musculus with 2 samples.

Results

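The NF-κB family studied here comprised 10 of the 31053 genes in the count tables. They were taken by symbol: the subunits *Nfkb1*, *Nfkb2*, *Rel*, *Rela* and *Relb*, the inhibitors *Nfkbia*, *Nfkbib* and *Nfkbie*, the nuclear IκB *Nfkbid*, and *Tnip1*. The data were single-cell RNA-seq of mouse periodontal tissue, in 1 library from C57BL/6 wild-type mice with ligature-induced periodontitis (LIP) and 1 library from untreated C57BL/6 wild-type mice (control). Each library pooled cells of 5 mice aged 8 weeks, and the LIP cells were collected 7 days after the ligature was tied around a molar. Mice of a pool cannot be told apart, so each condition counts as 1 sample, no p-value can be given, and every interval below is a 95% interval of counting error only.

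NF-κB is a family of dimeric transcription factors built from the Rel-domain proteins RelA, c-Rel, RelB, p50 (from *Nfkb1*) and p52 (from *Nfkb2*). In resting cells the dimers are held in the cytoplasm by IκB proteins, which are phosphorylated by the IKK complex and degraded when a cell meets a cytokine or a bacterial product, and the freed dimers then switch on inflammatory genes. Several genes of the system, *Nfkbia* above all, are themselves targets of NF-κB, so that their transcripts are widely used as a reading of recent pathway activity in inflamed tissue such as the gingiva.

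The upstream sequences of the members are shown because several of the genes described below carry a κB match close to their start. RefSeq promoter windows (GRCm38.p6) were held for 8 of the 10 members. There were none for *Nfkb1* and *Relb*. The 250 bases before each start were searched on both strands for the κB consensus, a motif of 10 bases that was chosen after the expression values had been seen. A match was found in 6 of these 8 members, against 8.23% of the 27025 genes with a window (7.25% of 32851 windows). Overlapping matches on both strands are frequent because the motif is close to a palindrome. No match was found for *Nfkbib* and *Rela*, and the windows of *Nfkb2*, 3 in number, which lie inside the annotated gene, are not printed. The gene of *Nfkbia* spans chr12:55489410-55492647 on the minus strand, and its 250 upstream bases (chr12:55492648-55492897, minus strand) hold 1 match, in capitals, whose last base is 20 bases before the start.
Nfkbia: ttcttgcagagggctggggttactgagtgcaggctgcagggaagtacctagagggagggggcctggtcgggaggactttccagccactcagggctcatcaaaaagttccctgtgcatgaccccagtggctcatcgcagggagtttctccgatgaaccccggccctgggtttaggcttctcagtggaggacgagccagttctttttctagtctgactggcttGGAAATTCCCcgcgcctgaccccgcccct

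The 60 bases around a match are shown for the other members, all 5′ to 3′ on the strand of the gene, with the matched bases in capitals. They lie at chr17:45555569-45555628 (*Nfkbie*, plus strand), chr11:54962963-54963022 (*Tnip1*, minus strand), chr11:23771027-23771086 (*Rel*, minus strand) and chr7:30422200-30422259 (*Nfkbid*, plus strand). In *Tnip1* and *Rel* several matches overlap, and for *Nfkbid* the stretch comes from the only 1 of its 3 windows with a match. That *Nfkbid* stretch lies inside the annotated gene (chr7:30421732-30428746), before the start of a RefSeq window within it. The window before the start of the annotated *Nfkbid* gene (chr7:30421481-30421730) held no match. A match is a description of these letters and does not show that a factor binds there.
Nfkbie: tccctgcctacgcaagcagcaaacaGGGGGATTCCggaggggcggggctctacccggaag
Tnip1: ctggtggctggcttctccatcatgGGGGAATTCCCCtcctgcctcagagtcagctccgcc
Rel: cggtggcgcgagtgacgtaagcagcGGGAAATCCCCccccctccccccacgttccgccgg
Nfkbid: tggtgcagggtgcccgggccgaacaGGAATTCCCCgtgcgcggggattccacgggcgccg

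The members lie on 6 chromosomes and each is annotated as protein-coding on GRCm38. *Relb* (chr7:19606217-19629438, minus strand), *Nfkbib* (chr7:28758251-28767512, minus strand) and *Nfkbid* (chr7:30421732-30428746, plus strand) share chromosome 7. *Rel* (chr11:23736847-23770970) and *Tnip1* (chr11:54910785-54962917) lie on the minus strand of chromosome 11, and *Rela* (chr19:5637483-5648130) and *Nfkb2* (chr19:46304320-46312385) on the plus strand of chromosome 19. *Nfkb1* spans chr3:135584655-135691547 on the minus strand and *Nfkbie* chr17:45555703-45563169 on the plus strand. *Nfkb2* and *Nfkbib* overlap protein-coding genes of the other strand (*Psd*, and *Ccer2* and *Sirt2*), which a strand-specific 3′ count separates.

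After filtering, 936 LIP and 883 control cells were kept, with medians of 5595 and 10845 UMIs (unique molecular identifiers, which count captured transcripts). Cells were clustered without the family members and without the 71 other pathway genes listed below, and each cluster was named from marker genes. The 10 classes with at least 15 cells in each library were neutrophil-like (322 LIP and 52 control cells, *S100a8*), macrophage-like (83 and 43, *C1qb*), T cell-like (27 and 51, *Cd3e*), B cell-like (19 and 154, *Cd79a*), epithelial-like (112 and 224, *Krt5*), vascular endothelial-like (79 and 48, *Pecam1*), mural-like (45 and 46, *Rgs5*), osteogenic-like (33 and 20, *Ibsp*), fibroblast-like (23 and 89, *Dcn*) and Schwann-like (103 and 37, *Sox10*). The UMIs of each gene were added up within a class and library, then scaled to 1000000 UMIs of that class (CPM, counts per 1000000). A member counted as higher or lower when it was past 2-fold on CPM + 10 among genes with at least 20 UMIs over both libraries in that class, and the share of all such genes past the same limit is given as the background. Only 1 barcode sequence was shared between the kept cells of both libraries.

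Among the inhibitors, *Nfkbia*, which encodes IκBα, the IκB that is resynthesized most quickly after activation, had a steep order across classes. In the control library its level was 1473 CPM in macrophage-like, 1292 in neutrophil-like and 1049 in T cell-like cells. It was 650 CPM in mural-like, 501 in vascular endothelial-like, 343 in fibroblast-like, 323 in B cell-like and 241 in Schwann-like cells, and lowest in osteogenic-like (127) and epithelial-like (119) cells. The counting intervals of macrophage-like and neutrophil-like cells overlapped, as did those of each neighbouring pair from fibroblast-like cells downward. In the LIP library the order was led by neutrophil-like cells at 4161 CPM, followed by macrophage-like (2215) and T cell-like (1727) cells, and these 3 intervals were apart. B cell-like (509), mural-like (459) and vascular endothelial-like (489) cells formed a middle group with overlapping intervals, and fibroblast-like cells, at 151 CPM, moved to the end of the order. The phagocytes and T cell-like cells thus held the highest *Nfkbia* levels of the 10 classes in both libraries, while the remaining compared classes did not exceed 650 CPM in either. Among classes too small to compare, chondrocyte-like cells were at 1738 CPM in LIP (7 cells) and 656 CPM in control (11 cells). Erythroid-like cells, with deep libraries (medians of 18116 LIP and 18922 control UMIs), held no *Nfkbia* UMI in 12 control cells, which allows up to 13.3 CPM at 3 counts, and 17 UMIs in 9 LIP cells, all of them in 1 cell.

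The nuclear IκB *Nfkbid*, which encodes IκBNS, and the subunit *Rel*, which encodes c-Rel, were the members closest to leukocyte genes. *Nfkbid* was measured at 233 CPM in T cell-like, 214 in B cell-like, 212 in macrophage-like and 144 in neutrophil-like control cells, and at 211, 152, 165 and 312 CPM in the LIP library. In the 6 other classes it did not exceed 6.22 CPM in either library, and control vascular endothelial-like, fibroblast-like, osteogenic-like and Schwann-like cells held none of its UMIs. *Rel* was at 599 CPM in control B cell-like cells, against 265 in macrophage-like, 153 in T cell-like and 109 in neutrophil-like cells, and it stayed at or below 35.2 CPM in the classes that are not leukocytes. The levels of *Rel* and *Nfkbid* across the 20 profiles of class and library had the highest correlation of the 45 pairs of members (Pearson's r = 0.95 on log2(CPM + 10)), and *Rel* and *Rela* the lowest (r = 0.02), with a median of 0.71. These profiles share 2 libraries, so the correlations describe the order of the classes only.

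*Rela*, which encodes the p65 subunit with a strong activation domain, was the most evenly spread member. Its control levels ran from 26.3 CPM in epithelial-like to 97.7 CPM in Schwann-like cells, and every neighbouring pair in that order had overlapping intervals. In the LIP library the range was 21.8 CPM in epithelial-like to 99.4 CPM in neutrophil-like cells. *Nfkb1*, which encodes p105 and p50, was led by T cell-like cells in both libraries, at 299 CPM in control and 357 CPM in LIP, followed by macrophage-like cells at 146 and 226 CPM. Epithelial-like cells were at or near the low end for *Nfkb2*, *Relb*, *Nfkbie* and *Tnip1*, with control levels of 5.51, 5.19, 0.973 and 7.94 CPM.

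**Figure D1:**
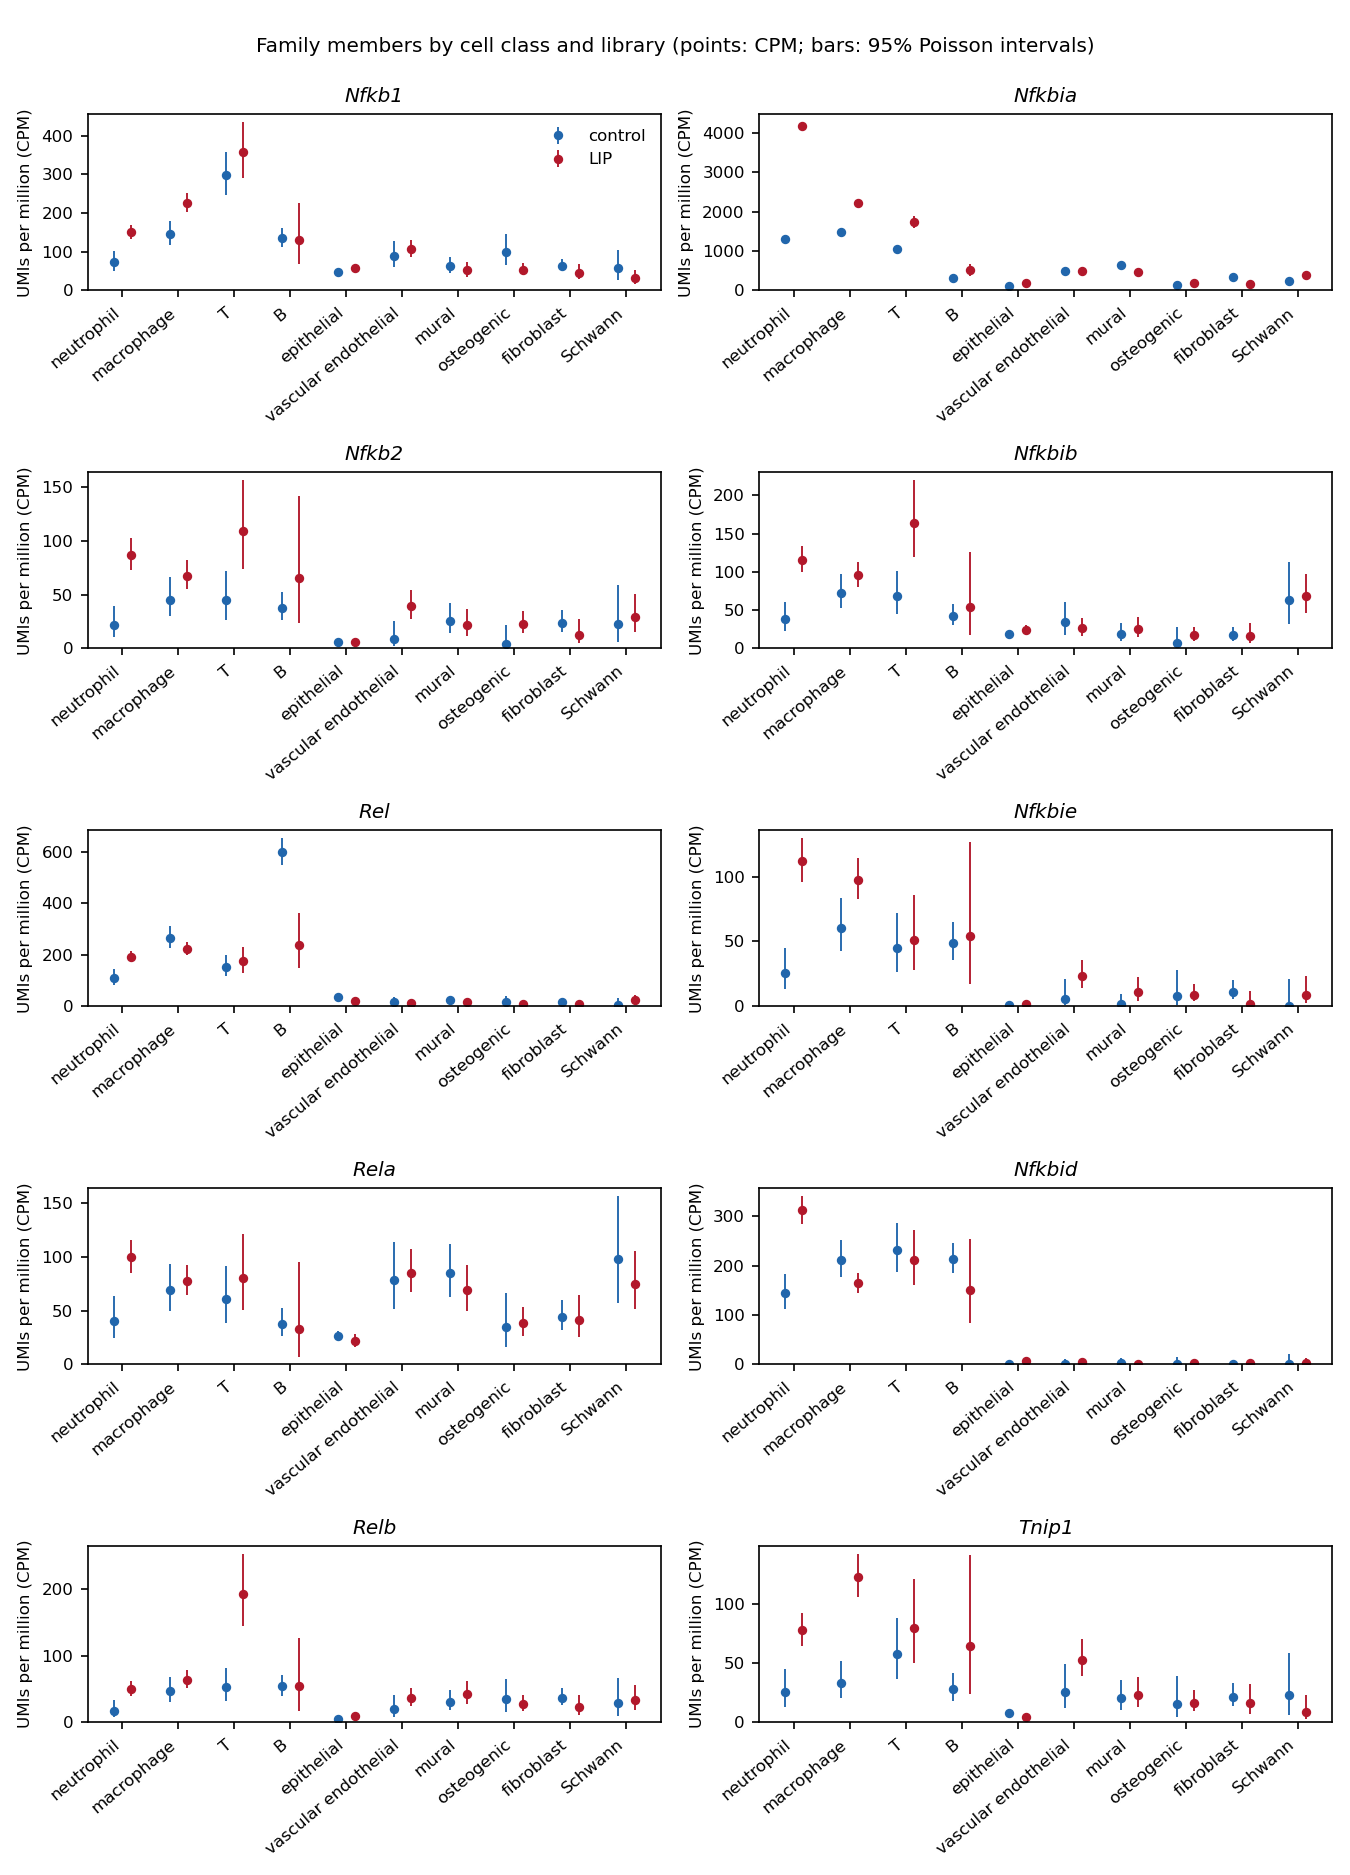
Levels of the 10 members in CPM (vertical axis, starting at 0) in each of 10 cell classes (horizontal axis), in the control (blue) and LIP (red) libraries, with 95% Poisson intervals. *Nfkbia* stands at 4161 CPM in LIP neutrophil-like cells, *Nfkbid* is near 0 outside the leukocyte classes, and *Rel* in B cell-like cells is at 599 CPM in control and 238 in LIP.

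The first comparison asked how the family differed between LIP and control within neutrophil-like cells, the largest class of the LIP library by cell number (34.4% of kept cells). All 10 members were higher in LIP with intervals above 0, and 8 of 10 were past 2-fold, where 7.01% of the 5124 genes tested were higher and 1.35% lower past it. The median of the members was 1.23 on the log2 scale of CPM + 10, against -0.02 for all genes tested. Among the inhibitors, *Nfkbia* was at 4161 CPM (6738 UMIs) in LIP and 1292 CPM (602 UMIs) in control, a log2 ratio of 1.69 (1.57 to 1.81) that was 1.05 with every cell weighed equally and lay between that and 1.92 under the alternatives run. *Nfkbie*, which encodes IκBε, was at 112 and 25.7 CPM (log2 2.12, 1.28 to 3.1), the largest ratio of the family in these cells, and *Nfkbib*, which encodes IκBβ, at 116 and 38.6 CPM (1.59, 0.89 to 2.37). *Nfkbid* was at 312 and 144 CPM (1.12, 0.75 to 1.51). Inhibitors and nuclear IκB were therefore all past the limit.

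Of the subunits in neutrophil-like cells, *Nfkb2*, the precursor of p52 in the non-canonical branch, was at 87.1 CPM in LIP and 21.5 in control (log2 2.02, 1.10 to 3.11). *Relb*, the usual partner of p52, was at 50.6 and 17.2 CPM (1.56, 0.52 to 2.82), on 82 and 8 UMIs. *Rela* was at 99.4 and 40.8 CPM (1.29, 0.60 to 2.06). The other two subunits missed the limit on CPM + 10: *Nfkb1* at 150 and 72.9 CPM (log2 of the CPM 1.04, 0.52 to 1.60), and *Rel* at 191 and 109 CPM (0.81, 0.38 to 1.26). *Tnip1* encodes ABIN-1, a ubiquitin-binding partner of A20 that restrains the pathway, and it was at 77.8 and 25.7 CPM (1.60, 0.74 to 2.59). The median depth of these cells was 3867 UMIs in LIP and 6529 in control, and the summed level of 10 immediate-early genes (*Fos*, *Jun*, *Egr1*, *Atf3* and others, listed after the values were seen), which can respond to tissue dissociation, was 7370 CPM in LIP and 3960 in control (log2 0.90), with 0 of 10 lower in LIP. Their part in the result was not tested.

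**Figure D2:**
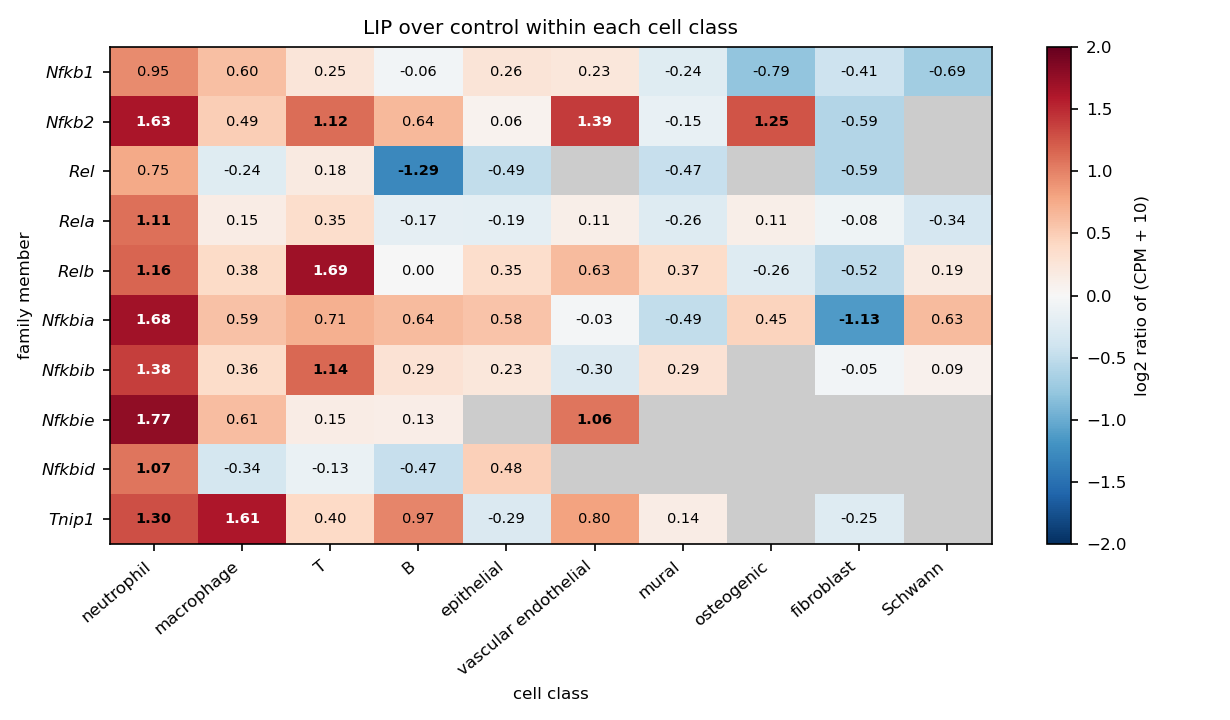
Log2 ratio of LIP over control on CPM + 10 for each member (rows) in each cell class (columns), on a colour scale from -2 (blue) to 2 (red). Grey marks members with fewer than 20 UMIs over both libraries, and bold values are past 2-fold: 8 members in neutrophil-like cells, 3 in T cell-like cells, and 2 or fewer elsewhere, with *Rel* in B cell-like and *Nfkbia* in fibroblast-like cells lower.

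The neutrophil-like class joined a pair of sub-clusters whose shares differed between the libraries, so the comparison was repeated in each, as an alternative chosen after the data were seen. One was led by *Acod1*, *Ccl3* and *Hcar2* and held 85.1% of LIP (274 of 322, exact Clopper-Pearson interval 80.7% to 88.8%) and 55.8% of control neutrophil-like cells (29 of 52, 41.3% to 69.5%). The other was led by the granule genes *Ltf*, *Ngp* and *Camp* and held 48 LIP and 23 control cells. Median depth was 3609.5 UMIs in LIP and 3741 in control *Acod1*-led cells, and 11206.5 and 12603 in *Ltf*-led cells. The part of depth in the comparisons of these sub-clusters was not tested. Within the LIP library the *Acod1*-led cells had the higher level of all 10 members past 2-fold, where 20.1% of 4526 genes were higher past it. *Nfkbia* was at 6508 CPM in *Acod1*-led and 514 CPM in *Ltf*-led LIP cells (log2 3.66, 3.5 to 3.83), *Nfkbib* at 182 and 14.2 CPM (3.68, 2.72 to 4.83), *Nfkbid* at 471 and 64.7 CPM (2.86, 2.40 to 3.36), and *Rela*, with the smallest ratio, at 138 and 39.4 CPM (1.81, 1.18 to 2.48). In the control library only 4 members had enough UMIs and all 4 were higher past the limit in *Acod1*-led cells (background 27.4%): *Nfkbia* at 3814 against 374 CPM (log2 3.35, 3.06 to 3.64), *Rel* at 290 against 43.9 (2.72), *Nfkbid* at 330 against 76.1 (2.12) and *Nfkb1* at 145 against 46.8 (1.63). The difference between the sub-clusters was thus seen in both libraries for these genes. Only the members and the listed pathway genes were kept out of the clustering, and *Acod1* and *Hcar2* are not among them. Genes that vary together with the family could therefore have shaped the split, and their part in this difference was not tested.

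Between LIP and control, the ratios inside each sub-cluster were smaller than over the whole class. In *Acod1*-led cells 3 of 10 members were past 2-fold (backgrounds of 3501 genes 9.4% higher and 7.48% lower): *Tnip1* at 114 CPM in LIP and 40.2 in control (log2 1.5, 0.23 to 3.15, on 112 and 5 UMIs), *Nfkb2* at 129 and 56.3 CPM (1.19, 0.11 to 2.54), and *Nfkbie* at 160 and 72.4 CPM (1.15, 0.19 to 2.30). *Nfkbia* was at 6508 and 3814 CPM, a ratio of 0.77 (0.64 to 0.91) that missed the limit, although its interval stayed above 0, as did those of *Nfkbib* (1.04) and *Nfkbid* (0.51). The *Nfkbia* ratio in these cells lay between 0.52 and 1.22 under the alternatives run. *Rel* was level at the main settings, at 279 and 290 CPM (-0.05, -0.56 to 0.49), and its ratio lay between -0.08 and 0.61 under the alternatives run. In *Ltf*-led cells 1 of 7 members tested was past the limit (background 2.97%), *Nfkbie* at 36.3 and 8.78 CPM (2.05, 0.32 to 4.43, on 23 and 3 UMIs), and *Nfkbia* was at 514 and 374 CPM (0.46, 0.16 to 0.76). The number past the limit in *Acod1*-led cells was 7 at a clustering resolution of 0.3, 5 with median-of-ratios scaling and 2 with every cell weighed equally. The summed immediate-early genes were level in *Acod1*-led cells, at 10804 CPM in LIP and 10299 in control (log2 0.07, -0.01 to 0.15), and at 2033 and 1656 CPM in *Ltf*-led cells (0.30, 0.15 to 0.44). Their part in the results was not tested.

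**Figure D3:**
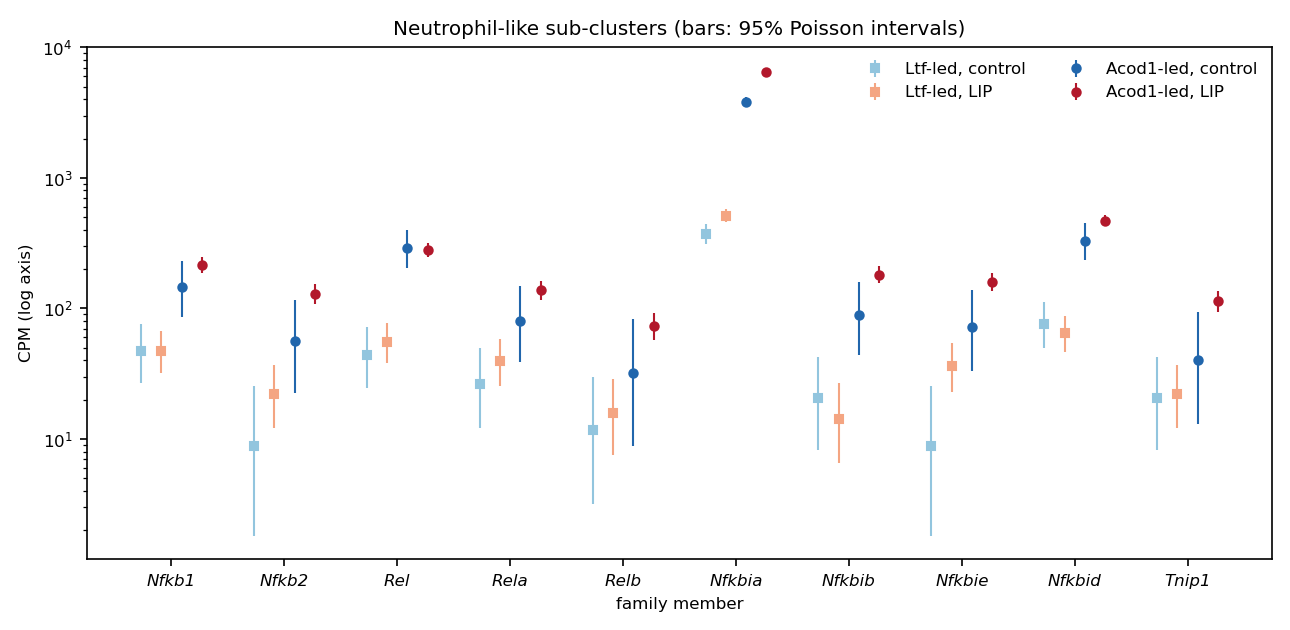
Levels in CPM (log axis) of the 10 members (horizontal axis) in *Ltf*-led (squares) and *Acod1*-led (circles) neutrophil-like cells of the control and LIP libraries, with 95% Poisson intervals. For *Nfkbia* the *Acod1*-led cells stand at 6508 CPM in LIP and 3814 in control, and the *Ltf*-led cells at 514 and 374.

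At the level of single cells the *Nfkbia* signal was broad and did not come from a few cells. The median *Acod1*-led LIP cell had 5979 CPM of *Nfkbia*, with quartiles of 3952 and 8452, and the median control cell 3734, with quartiles of 903 and 7225. With every cell thinned to 1000 UMIs, 94.7% of *Acod1*-led LIP cells (interval 91.2% to 97.1%, 11 shallower cells left out) and 75.9% of control cells (56.5% to 89.7%) held an *Nfkbia* UMI; before thinning these shares were 97.8% and 93.1%. The thinned share was 84.0% of LIP and 58.5% of control macrophage-like cells, and 12.7% of LIP and 10.9% of control epithelial-like cells. For *Nfkbid* the thinned shares of *Acod1*-led cells were close, at 35.7% in LIP and 34.5% in control.

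**Figure D4:**
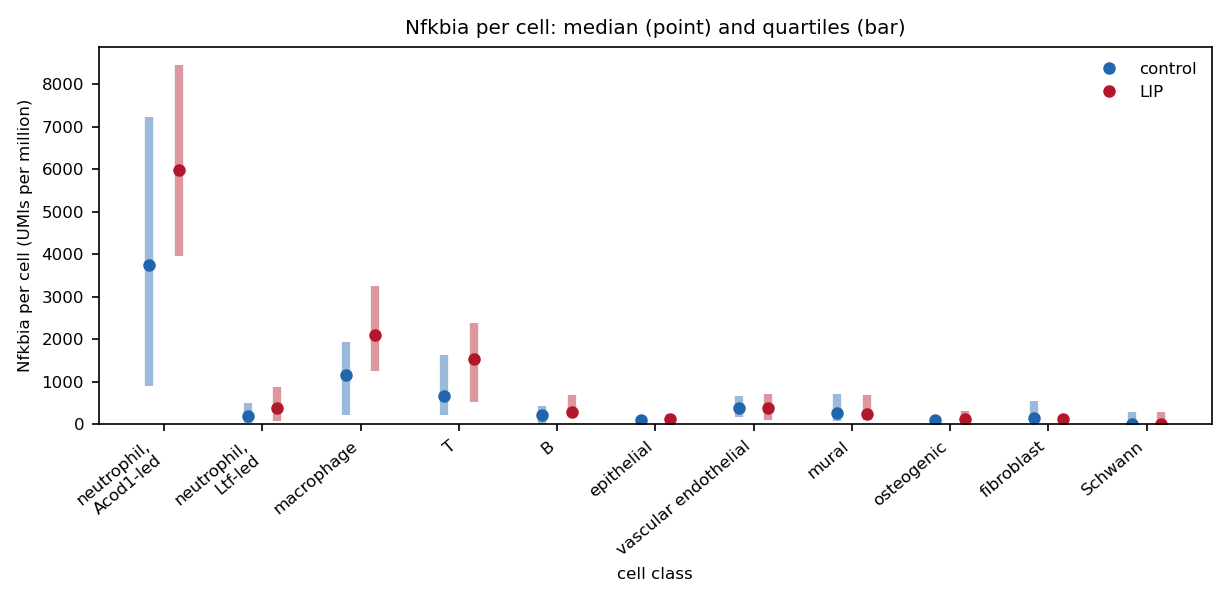
*Nfkbia* CPM in single cells (vertical axis) by cell class, with neutrophil-like cells split by sub-cluster (horizontal axis), in the control (blue) and LIP (red) libraries. Points are medians over cells and bars span the quartiles; the median is 5979 in LIP *Acod1*-led cells and 113.8 in LIP epithelial-like cells.

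In macrophage-like cells 1 of 10 members was past 2-fold, against backgrounds of 4.57% higher and 2.71% lower among 7663 genes. This was *Tnip1*, at 123 CPM (188 UMIs) in LIP and 33.6 CPM (20 UMIs) in control (log2 1.88, 1.21 to 2.62). *Nfkbia* was at 2215 and 1473 CPM (0.59, 0.48 to 0.70), *Nfkb1* at 226 and 146 (0.63, 0.29 to 0.99) and *Nfkbie* at 97.7 and 60.5 (0.69, 0.16 to 1.26), all higher in LIP by less than the limit with intervals above 0. *Nfkbid* went the other way, at 165 CPM in LIP and 212 in control (-0.36, -0.68 to -0.04). *Rel* was at 223 and 265 CPM (-0.25, -0.52 to 0.03), and its interval held 0.

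T cell-like cells had 3 of 10 members higher past 2-fold (backgrounds of 4113 genes 7.44% higher and 5.69% lower). *Relb* was at 193 CPM (53 UMIs) in LIP and 52.9 CPM (20 UMIs) in control (log2 1.87, 1.10 to 2.69), *Nfkb2* at 109 and 44.9 CPM (1.28, 0.38 to 2.23), and *Nfkbib* at 164 and 68.7 CPM (1.25, 0.53 to 2.01). The ratios of *Nfkb1* (357 and 299 CPM) and *Rel* (175 and 153 CPM) had intervals that held 0. Different sub-clusters held most of the class: 16 of 27 LIP cells were in the one led by *Il17a* and *Trdc*, and 30 of 51 control cells in the one led by *Xcl1* and *Nkg7*. *Relb* was higher in LIP in both, at 229 against 73.2 CPM in *Il17a*-led (log2 1.65, 0.63 to 2.81) and 125 against 41.4 CPM in *Xcl1*-led cells (1.60, 0.26 to 2.97). *Nfkb2* was at 145 and 58.6 CPM in *Il17a*-led cells (1.31, 0.13 to 2.67) and at 41.8 and 37.2 CPM in *Xcl1*-led cells (0.17, -1.98 to 2.01). *Nfkb1* went in opposite directions, at 335 and 556 CPM in *Il17a*-led cells (-0.73, -1.24 to -0.22) and at 397 and 153 CPM in *Xcl1*-led cells (1.38, 0.68 to 2.07). The class-wide ratio of *Nfkb1* therefore hid differences beyond counting error in both sub-clusters. *Nfkbib* was at 229 and 102 CPM in *Il17a*-led cells (1.16, 0.26 to 2.15) and at 41.8 and 49.6 CPM in *Xcl1*-led cells, on 4 and 12 UMIs. *Nfkbia* was likewise at 2058 and 1061 CPM in *Il17a*-led (0.95, 0.67 to 1.24) and 1108 and 1042 CPM in *Xcl1*-led cells (0.09, -0.25 to 0.42). The difference between the sub-clusters in these ratios was not tested.

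In B cell-like cells *Rel*, whose product c-Rel is needed for the division of stimulated B cells, was lower in LIP. It was at 238 CPM (22 UMIs in 19 cells) against 599 CPM (552 UMIs in 154 cells), a log2 ratio of -1.33 (-2.02 to -0.72), and it was 1 of 10 members lower past 2-fold, where 9.61% of 4901 genes were lower past it. A count of 1 of 10 is close to that share. No member was higher past 2-fold (background 7.84%), and *Nfkbia* was at 509 and 323 CPM (0.66, 0.18 to 1.10). A sub-cluster led by *Vpreb3*, a gene of developing B cells, held 8 of the 19 LIP and 10 of the 154 control cells. In the remaining, *Cd79a*-led cells *Rel* was at 172 and 643 CPM (-1.91, -2.97 to -1.02), on 10 UMIs in 11 LIP cells and 532 UMIs in 144 control cells. It was at 353 and 211 CPM in *Vpreb3*-led cells (0.74, -0.43 to 1.84), on 12 and 20 UMIs. For *Nfkbia* the interval held 0 in both, at 377 and 288 CPM in *Cd79a*-led (0.39, -0.31 to 1.02) and 735 and 634 CPM in *Vpreb3*-led cells (0.21, -0.52 to 0.91).

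Among the stromal classes, vascular endothelial-like cells had 2 of 8 members tested higher past 2-fold (backgrounds of 7213 genes 3.97% higher and 2.77% lower). *Nfkb2* was at 39.2 CPM (34 UMIs) in LIP and 8.69 CPM (3 UMIs) in control (log2 2.17, 0.50 to 4.52). *Nfkbie* was at 23.0 and 5.80 CPM, on 20 and 2 UMIs, with an interval that reached below 0 (1.99, -0.05 to 5.13), and *Nfkbia* was level, at 489 and 501 CPM (-0.03, -0.29 to 0.23). Osteogenic-like cells, the bone-lining and bone-forming lineage of this tissue, had 1 of 5 members tested past the limit (backgrounds of 6515 genes 4.8% higher and 6.43% lower), *Nfkb2* at 23.0 and 3.86 CPM, which rests on 21 UMIs against 1 (2.58, -0.06 to 7.95). In the same cells *Nfkbia* was at 177 and 127 CPM (0.48, -0.07 to 1.07), and *Nfkb1* at 53.7 and 100.2 CPM (-0.90, -1.62 to -0.16), a difference below 2-fold on CPM + 10. *Nfkb2* was thus past the limit in 4 of the 9 classes in which it was tested, but outside neutrophil-like cells these calls rest on fewer than 50 UMIs each (30 and 17 in T cell-like cells). With osteogenic-like, fibroblast-like and chondrocyte-like cells merged, *Nfkb2* was level, at 19.2 CPM in LIP and 18.7 in control (0.05, -0.78 to 0.88).

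Fibroblast-like cells were the class in which no member tested had a positive ratio, 0 of 8, and 1 was lower past 2-fold (backgrounds of 7760 genes 3.3% lower and 2.36% higher). That member was *Nfkbia*, at 151 CPM (73 UMIs in 23 cells) in LIP and 343 CPM (333 UMIs in 89 cells) in control (log2 -1.18, -1.57 to -0.81). The remaining 7 had intervals that held 0, among them *Rel* (8.29 and 17.5 CPM) and *Nfkb2* (12.4 and 23.7 CPM). Under some of the alternatives run, the ratio reached 0.19 for *Rela*, 0.18 for *Nfkbib*, 0.36 for *Nfkb2* and 0.04 for *Tnip1*. Those of *Nfkb1*, *Rel* and *Relb* stayed below 0. The count of 0 of 8 therefore did not hold under every alternative. The *Nfkbia* ratio missed the limit under 3 alternatives, at -0.79 with 15 dimensions, -0.67 with the family among the clustering genes, and -0.23 with at most 5% mitochondrial UMIs, and it was -1.19 and -1.18 at clustering resolutions of 0.05 and 0.3 and -1.08 with cells typed by marker score. The summed immediate-early genes were at 3174 CPM in LIP and 6102 in control fibroblast-like cells (-0.94, all 10 lower), and the median depth was 19517 UMIs in LIP and 11665 in control. Their part in the result was not tested. The same summed log2 ratio was 1.60 in osteogenic-like, 0.93 in epithelial-like, -0.28 in macrophage-like, -0.53 in T cell-like, -0.59 in B cell-like, -0.41 in Schwann-like and -0.83 in vascular endothelial-like cells. Merging fibroblast-like, osteogenic-like and chondrocyte-like cells gave *Nfkbia* at 285 and 328 CPM (-0.20, -0.40 to -0.01).

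No member was past 2-fold in epithelial-like (0 of 9, backgrounds 1.05% higher and 0.218% lower), mural-like (0 of 8, 2.9% and 2.31%) or Schwann-like cells (0 of 5, 4.04% and 4.84%). Epithelial-like cells still held differences beyond counting error, since their sums were deep: *Nfkbia* was at 183 CPM in LIP and 119 in control (log2 0.62, 0.45 to 0.79), *Relb* at 9.32 and 5.19 (0.85, 0.02 to 1.65), *Nfkbid* at 6.22 and 1.62 (1.94, 0.71 to 3.24, on 16 and 10 UMIs) and *Rel* at 22.1 and 35.2 (-0.67, -1.12 to -0.24). The *Nfkbid* ratio rests on few UMIs and lay between 0.30 and 2.65 under the alternatives run. The *Nfkbia* ratio was similar in the sub-cluster led by *BC037156* (0.61) and in that led by *Pappa* (0.66). Mural-like cells had less *Nfkbia* in LIP, at 459 and 650 CPM (-0.50, -0.72 to -0.28); in the smooth muscle sub-cluster led by *Myh11* it was at 541 and 808 CPM (-0.58), and in that led by *Rgs5* at 367 and 293 CPM (0.33, -0.16 to 0.83). The summed immediate-early genes of mural-like cells were at 6517 CPM in LIP and 20087 in control (-1.62), and their part was not tested. In Schwann-like cells *Nfkbia* was at 379 and 241 CPM (0.65, 0.16 to 1.18) and in the *Scn7a*-led sub-cluster, of 28 LIP and 20 control cells, at 628 and 206 CPM (1.61, 0.89 to 2.39). Another 24 LIP cells of this class formed an *Mbp*-led sub-cluster with a median of 899 UMIs and no control cell.

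RNA that escapes from neutrophils can enter the droplets of other cells, so its size was estimated from neutrophil transcripts in the other classes of the LIP library. Of 6 such genes, the one with the lowest ratio to its neutrophil-like level was taken, with counts under 3 set to 3. That ratio was 0.0618% in fibroblast-like, 0.0806% in osteogenic-like, 0.0988% in epithelial-like and 0.338% in Schwann-like cells. At those lowest ratios neutrophil-like RNA would account for 2.57, 3.35, 4.11 and 14.1 CPM of *Nfkbia*, against measured levels of 151, 177, 183 and 379 CPM. For *Nfkbid* the estimate at the lowest ratio was 0.308 CPM in epithelial-like cells, against 6.22 measured. In the same order of classes, the median of the 6 ratios was 0.202%, 0.146%, 0.420% and 0.616%. The highest was 0.422%, 0.266%, 0.915% and 1.65%. The lowest ratio is a bound only if escaped RNA had the make-up of the whole neutrophil-like class, which was not tested.

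Over all kept cells, 3 of 10 members were past 2-fold with LIP above control at their own mix of cells (background 3.15% of 14705 genes): *Nfkbia* at 1222 and 328 CPM (log2 1.90, 1.85 to 1.95), *Nfkbie* at 38.1 and 10.96 CPM (1.80, 1.52 to 2.08) and *Tnip1* at 42.8 and 14.5 CPM (1.56, 1.32 to 1.81). *Rel* was level, at 80.4 and 84.5 CPM (-0.07, -0.20 to 0.06). Neutrophil-like cells supplied 52.2% of all *Nfkbia* UMIs in LIP and 13.7% in control, and 58.5% and 12.8% of those of *Nfkbid*. When the control level of each class was weighted by the LIP mix of classes, the log2 ratio of *Nfkbia* became 1.004, and 0.63 with the neutrophil-like sub-clusters weighted apart. *Nfkbid* went from 1.06 to 0.39 and 0.11 in the same steps, while *Tnip1* went from 1.56 to 1.12 and 1.04 and *Nfkb2* from 1.38 to 1.07 and 0.88. *Nfkbie* went from 1.80 to 1.19 and 0.93. Matching the mix thus lowered the ratio of each of these members, and *Nfkbie* had the highest ratio at the mix of classes and *Tnip1* with the sub-clusters apart.

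**Figure D5:**
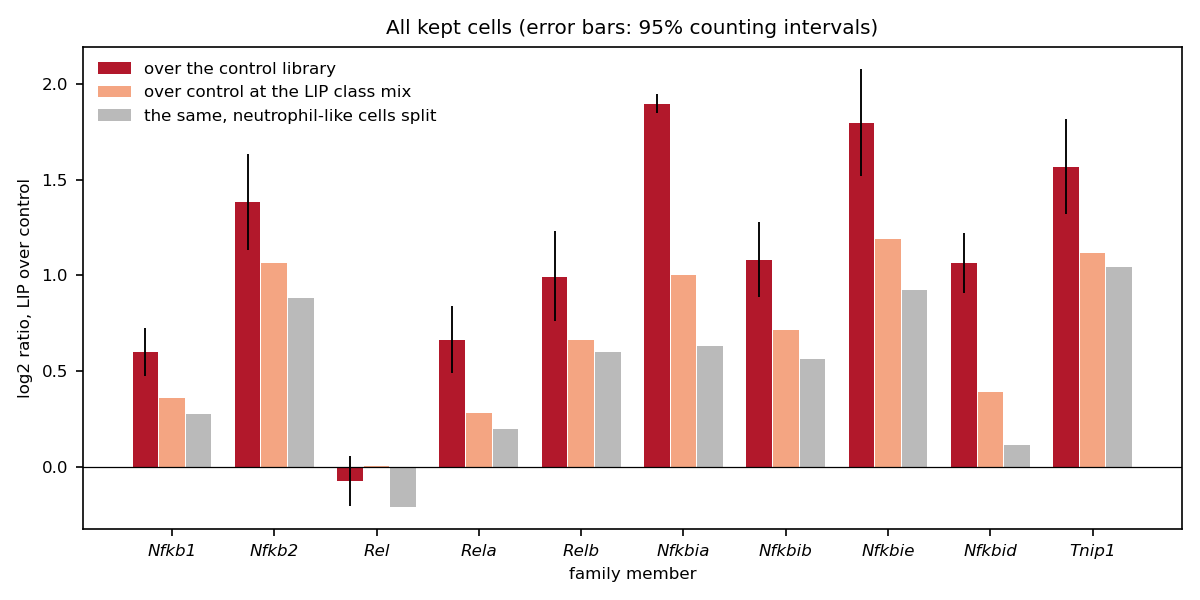
Log2 ratio of LIP over control for each member over all kept cells (red, with 95% counting intervals), over control levels weighted to the LIP mix of classes (orange), and with the neutrophil-like sub-clusters weighted apart (grey). The bars of *Nfkbia* fall from 1.90 to 1.004 and 0.63, and those of *Tnip1* from 1.56 to 1.12 and 1.04.

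The rest of the pathway was read from 5 lists of 71 genes that exclude the members. These lists, like the members, were chosen with earlier results of these data known. Their counts beside the background shares therefore describe these data and are no independent support. In neutrophil-like cells 15 of the 18 target genes tested were higher past 2-fold (background 7.01% here and for the other lists of this class; median log2 1.94 on CPM + 10, against -0.02 over all genes), including the chemokines *Ccl4* at 3222 CPM in LIP and 129 in control and *Ccl3* at 3407 and 455 CPM. The lowest ratio was that of the urokinase receptor gene *Plaur*, at 1362 and 858 CPM (log2 0.67). Of the adaptors and ubiquitin ligases 6 of 16 were higher, among them *Traf1* at 183 and 34.3 CPM and *Malt1*, a paracaspase, at 120 and 27.9 CPM, with a median of 0.09. Of the deubiquitinases and other brakes 1 of 10 was higher, *Tnfaip3*, which encodes the A20 that *Tnip1* partners, at 651 and 185 CPM. Of the other IκB-related genes 1 of 4 was higher, *Nfkbiz*, which encodes the nuclear IκBζ, at 1692 and 448 CPM. Of the IKK and upstream kinases 1 of 9 was higher, *Map3k8* at 99.4 and 40.8 CPM, and the kinase *Ikbkb* was at 38.9 and 27.9 CPM. A count of 1 of 9 or 1 of 10 is close to the background share. No gene of these lists was lower past the limit over the whole class. Within *Acod1*-led cells 10 of 18 targets were higher (background 9.4%, median 1.08), and within *Ltf*-led cells 2 of 11 (background 2.97%, median 0.80). *Tnfaip3* was not past the limit in *Acod1*-led cells, at 1008 and 555 CPM (log2 0.86), and *Ripk1*, at 41.6 and 96.5 CPM, and *Irak1* were lower past it there.

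In the other classes the count of target genes higher past the limit stood above the share of all genes in some and not in others. In T cell-like cells 4 of 11 were higher and 1 lower (backgrounds 7.44% and 5.69%), in Schwann-like cells 3 of 9 were higher (4.04%), and in mural-like cells 1 of 10 was higher and 2 lower (2.9% and 2.31%). The 3 in Schwann-like cells were *Il1b*, *Cxcl1* and *Cxcl2*, and the 1 in mural-like cells was *Cxcl2*. *Il1b* and *Cxcl2* were among the neutrophil transcripts used above to estimate escaped RNA. Both were also among the higher targets in macrophage-like, epithelial-like and vascular endothelial-like cells, and *Cxcl2* in osteogenic-like cells. The part of escaped RNA in these counts was not tested. In B cell-like cells 0 of 11 were higher and 4 lower (7.84% and 9.61%). In macrophage-like cells 7 of 21 were higher and 2 lower (backgrounds 4.57% and 2.71%, median 0.56), with *Sod2*, a mitochondrial antioxidant enzyme, at 883 CPM in LIP and 123 in control and *Cd83* at 301 and 687 CPM. There the kinase *Ikbke* (48 and 2 UMIs) and the inhibitory *Irak3* (87 and 3 UMIs) were also higher. In epithelial-like cells 6 of 16 targets were higher (background 1.05%, median 0.80), with *Cxcl1* at 144 UMIs against 5 and *Csf3* at 97 against 0, and *Bcl3*, an IκB-related partner of p50 and p52, was at 17.5 and 2.92 CPM (log2 2.58). In vascular endothelial-like cells 5 of 13 were higher (background 3.97%, median 0.80), with the adhesion molecule *Icam1* at 264 and 110 CPM. *Vcam1*, another adhesion molecule of the list, was lower in LIP, at 94.4 and 165 CPM (-0.81, -1.31 to -0.29), but not past the limit. *Bcl3* was at 58.7 and 17.4 CPM (1.76) in these cells. In osteogenic-like cells 7 of 11 were higher (background 4.8%, median 1.49), with *Cxcl1* at 109.5 and 7.71 CPM and *Gadd45b* at 177 and 27.0 CPM, while *Nfkbia*, the only inhibitor among the members with enough UMIs there, was not past the limit. The summed immediate-early genes of osteogenic-like cells were at 2372 CPM in LIP and 783 in control. Their median depth was 25670 UMIs in LIP and 12931 in control. The part of both in this count was not tested. In fibroblast-like cells 1 of 11 was higher, *Marcksl1* (background 2.36%, median 0.04), *Nkiras1* was 1 of 4 IκB-related genes higher, and the kinase, adaptor and brake lists had none in either direction.

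Across the 20 profiles, the genes whose levels were most like *Nfkbia* were *Slc20a1* (r = 0.93), *Maff* and *Ier5* (both 0.92), out of 13123 genes with at least 50 UMIs. For *Nfkbid* they were the leukocyte genes *Cd53* (0.99), *Dock2* (0.99) and *Coro1a* (0.99), and for *Rel* they were *Cytip* (0.96), *Stap1* (0.96) and *Ptpn6* (0.95). *Nfkbie* was most like *Skil* (0.95), *Dusp2* (0.92) and *Pim1* (0.92). Members were among each other's nearest genes in some cases: *Tnip1* was most like *Nfkb2* and *Nfkbie* (both 0.85), and *Relb* most like *Gtf2b* and *Nfkb2* (both 0.83). *Nfkb1* was most like *Gch1* (0.89), *Nfkb2* most like *Wsb1* (0.86), *Nfkbib* most like *Sin3b* (0.86) and *Rela* most like *Atp2b1* (0.86).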

How the data were processed

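The single-cell 3′ v3 libraries of 10x Genomics were aligned by the authors to mm10 with Cell Ranger (3.1.0 per the file headers), and the deposited values are UMI counts that were not normalized. Barcodes with 200 to 7500 genes, at most 60000 UMIs and at most 10% mitochondrial UMIs were kept (75.5% of 1169 control and 77.2% of 1212 LIP barcodes). Integration and clustering used Seurat 5.3.0 under R 4.3.3 (2000 variable genes, 1979 after removing family and pathway genes, 30 dimensions, resolution 0.1, sub-clusters at 0.2). A named cluster had at least 3 markers found in 25% of its cells and over 2-fold above the rest. Unnamed clusters were not compared. Scrublet (scanpy 1.11.5) called 4 control and 1 LIP doublets, too few to rely on, and they stayed in. Sums and exact 95% Poisson, ratio and Clopper-Pearson intervals, whose width the depth sets, were computed with Python 3.11.15, numpy 2.4.6, pandas 2.3.3 and scipy 1.17.1, and plotted with matplotlib 3.10.9. Scripts were tested on simulated data. Members and lists were chosen with earlier results of these data known. Named genes were the members, up to 3 genes with the highest and 3 with the lowest ratio of each list among those with 50 UMIs (some are printed), the 3 most alike genes per member and a marker per class. The immediate-early genes, the sub-cluster comparisons, the targets named beside escaped RNA, *Marcksl1*, *Nkiras1*, *Irak1* and *Ripk1* were picked after seeing their values. Positions are on GRCm38.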

Additional observations from a re-analysis of the deposited data

Results flagged for a closer look

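*Nfkbia* differed in direction between cell classes. Its log2 ratio of LIP over control was 1.69 in neutrophil-like cells (4161 and 1292 CPM) and -1.18 in fibroblast-like cells (151 and 343 CPM). The first was 1.05 with every cell weighed equally, and 0.77 and 0.46 within the *Acod1*-led and *Ltf*-led sub-clusters. The ratio in *Acod1*-led cells lay between 0.52 and 1.22 under the alternatives run. The ratio in fibroblast-like cells was -0.23 with at most 5% mitochondrial UMIs. With 1 library per condition each class has a single value per condition, and the difference between the 2 classes was not tested.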

How the results depend on the processing

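No paired analysis was possible because each condition has 1 library and the labels carry no replicate numbers. Each of the values below was recomputed with 1 choice changed at a time, and no called ratio changed its sign under any of the alternatives run. Of 269 recomputed main results 42 moved. These leave out the ratios of single members within classes and sub-clusters, of which 33 moved when recomputed and 1035 did not. The cause was not tested where none is given.

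Counts of members past 2-fold moved as follows, 8 in neutrophil-like cells running from 6 to 10. With 15 dimensions there was 1 in epithelial-like and 0 in fibroblast-like cells, with the family among the clustering genes 0 in fibroblast-like cells, and with at most 5% mitochondrial UMIs 1 in epithelial-like and 0 in fibroblast-like cells. A resolution of 0.3 gave 7 in *Acod1*-led neutrophil-like cells, and median-of-ratios scaling gave 5. Weighing cells equally gave 1 in Schwann-like, 2 in macrophage-like and 1 in vascular endothelial-like cells, as did typing cells by marker score (1, 2 and 1). Adding 1 CPM gave 2 in B cell-like, 1 in epithelial-like and 5 in *Acod1*-led cells. Requiring at least 50 UMIs left 0 in osteogenic-like, vascular endothelial-like and *Ltf*-led cells, since fewer members were tested, and requiring 1 UMI gave 1 in Schwann-like cells and 8 for *Acod1*-led over *Ltf*-led control cells. At 1.5-fold there were 4 in B cell-like, 2 in Schwann-like, 3 in fibroblast-like, 4 in macrophage-like, 2 in osteogenic-like, 4 in vascular endothelial-like and 7 in *Acod1*-led cells.

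Over all kept cells, at most 5% mitochondrial UMIs moved the log2 ratio of *Nfkb1* to 0.90, *Rel* to 0.47, *Relb* to 1.29, *Nfkbia* to 2.14, *Nfkbid* to 1.40, *Nfkbie* to 2.11 and *Tnip1* to 1.90. Weighing cells equally gave -0.27 for *Rel*, 2.29 for *Nfkbia* and 1.35 for *Nfkbib*, and median-of-ratios scaling gave 1.98 for *Nfkbia*. Merging the stromal classes gave 285 CPM of *Nfkbia* in place of 177. Thinning to 2000 UMIs gave *Nfkbia* shares of 90.3% of neutrophil-like and 31.2% of epithelial-like LIP cells.

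B cell-like, mural-like and osteogenic-like cells under the 5% limit, osteogenic-like cells under the marker score, and *Ltf*-led cells at a resolution of 0.3 had fewer than 15 cells in a library and gave no value.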
